A study of Bos taurus with 9 samples.

Results

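Acetylated autosomal RNA polymerase II (RNA pol II) peaks are regions of the bovine genome where the transcribing enzyme and an active histone mark were found at the same place. The peaks were chosen by position overlap, as RNA pol II peaks on chromosomes 1 to 29 that shared at least 1 bp with a peak of acetylated lysine 9 or lysine 27 of histone H3 (H3K9ac, H3K27ac) in either condition, and no base with a peak of trimethylated lysine 9 of histone H3 (H3K9me3) in either condition. There were 219 such peaks in the control list, of 673 RNA pol II peaks on these chromosomes and 863 in the whole list. After butyrate there were 408, of 1242 and 1492. Together they made 627 of the 86291 peaks in the 8 lists of the series. The overlaps with the acetylation and H3K9me3 lists chose these peaks, so they are given below as a description and not as a result.

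The lists came from chromatin immunoprecipitation followed by sequencing (ChIP-seq) of rumen tissue from Holstein cattle, with 1 library for each antibody and condition. The control libraries were of tissue before treatment and the butyrate libraries of tissue after 24 h of butyrate, which the methods of the study describe as infused. The RNA pol II antibody was a mouse monoclonal, and the labels give the same lot for both conditions. The labels give the tissue as rumen, while the extraction protocol speaks of rumen epithelium, and they give neither age nor number of animals. Both RNA pol II libraries were sequenced on lane 3. Of the acetylation libraries, those of control were run on lane 1 and those of butyrate on lane 3, and the H3K9me3 libraries were on lanes 3 and 4, so that for these marks lane and condition cannot be told apart. With a single library in each group, the spread between animals is unknown, and no p-value is given. All intervals are 95% intervals that cover counting error only. The lists carry no peak height and no read number, and differences in sequencing depth were not corrected for.

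RNA polymerase II makes the messenger RNA of the protein-coding genes of the nucleus. It gathers at promoters, where it often pauses before it moves into the gene, and lower amounts are found at active enhancers. H3K27ac marks active promoters and enhancers, H3K9ac is found mostly at active promoters, and H3K9me3 marks silent heterochromatin. Butyrate, a short-chain fatty acid made by microbes in the rumen, is a fuel of the rumen wall and inhibits histone deacetylases, the enzymes that take acetyl groups off histones. Which cells of the tissue gave a peak cannot be read from the lists. No gene positions of the assembly of the lists, UMD3.1, were used here, so the peaks are named by their coordinates and not by genes, and the tissue could not be checked against marker genes.

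The first question was how the number of acetylated RNA pol II peaks differed between the conditions. The butyrate list held 1.86 times as many as the control list, a log2 ratio of 0.90 (0.66 to 1.14). The bases under them were 52788 bp in control and 98202 bp after butyrate, also a log2 ratio of 0.90. All RNA pol II peaks on these chromosomes had a log2 ratio of 0.88 (0.75 to 1.02). The acetylated peaks therefore took a near equal share of both lists, 32.5% (29.1 to 36.2) in control and 32.9% (30.3 to 35.5) after butyrate. RNA pol II peaks that overlapped H3K9me3, with acetylation or without, had the smaller log2 ratio of 0.37 (0.04 to 0.71), from 133 to 172 peaks. Those with no histone mark went from 321 to 662, a log2 ratio of 1.04 (0.85 to 1.24).

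The acetylated peaks were short. In control the median width was 223 bp with quartiles of 200 and 257 bp, and after butyrate it was 218 bp with quartiles of 200 and 263 bp. The mean was 241 bp in both lists. The smallest width in the lists is 200 bp, and 29.7% (24.0 to 36.0) of the control peaks and 35.0% (30.6 to 39.8) of the butyrate peaks were of that width. From control to butyrate the number went from 65 to 143 at 200 bp, from 126 to 212 above 200 to 300 bp, and from 28 to 53 for peaks wider than 300 bp. The log2 ratios of these classes were 1.14, 0.75 and 0.92, with intervals that overlapped.

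In width the acetylated peaks lay between the other RNA pol II peaks of the same lists. Peaks with H3K9me3 had medians of 269 bp in control and 262 bp after butyrate, and 14.3% (9.34 to 21.2) and 11.6% (7.65 to 17.3) of them were at 200 bp. Peaks with no histone mark had medians of 208 and 204 bp, and 41.1% (35.9 to 46.6) and 47.4% (43.7 to 51.2) were at 200 bp. The intervals of the acetylated peaks did not overlap those of the H3K9me3 class in either list, and those of the unmarked class were overlapped narrowly in control and not after butyrate.

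The second question was how many of these peaks were called in both conditions. Of the 219 control peaks 34 overlapped a butyrate RNA pol II peak, or 15.5% (11.3 to 20.9), against a background of 15.3% over all RNA pol II peaks on chromosomes 1 to 29. In the other direction, 32 of 408 butyrate peaks met one of the control list, or 7.84% (5.61 to 10.9), against a background of 8.29%. The acetylated peaks thus stood at the background of their lists, which is itself a mixture. Peaks with H3K9me3 were found again in 44.4% (36.2 to 52.8) and 36.0% (29.2 to 43.5) of cases, and peaks with no histone mark in 3.12% (1.70 to 5.64) and 1.36% (0.717 to 2.56). In each list the interval of the acetylated class overlapped neither of the others.

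**Figure D1:**
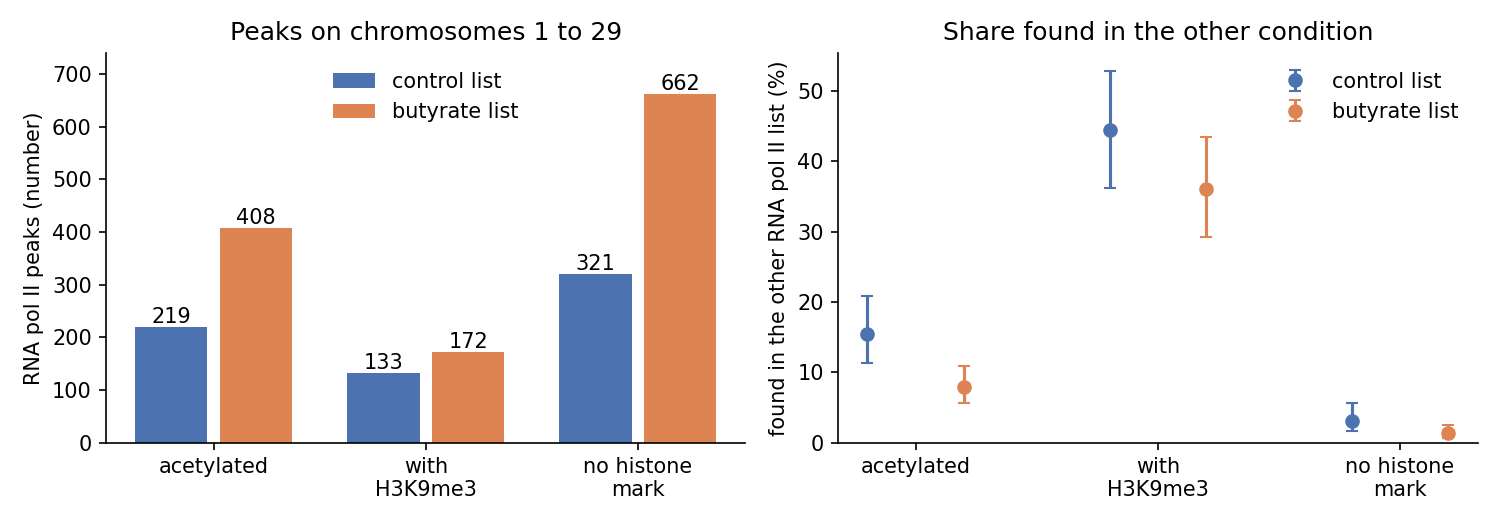
The left panel gives the number of RNA pol II peaks on chromosomes 1 to 29 by histone mark in the control and butyrate lists (bars), and the right panel the percentage of them that overlapped an RNA pol II peak of the other list (points, with Wilson 95% intervals). The acetylated peaks number 219 and 408, and their shares of 15.5% and 7.84% lie below those of the peaks with H3K9me3 and above those of the peaks with no histone mark. The peaks with H3K9me3 include those that also overlapped acetylation.

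The share found in the other list was highest for the widest peaks, with an interval apart from that of the 200 bp peaks in each list. The intervals of the 200 bp peaks and of those above 200 to 300 bp overlapped in both lists. How far width itself eases an overlap of 1 bp was not tested. In control 3 of 65 peaks of 200 bp were found after butyrate (4.62%, 1.58 to 12.7), 23 of 126 above 200 to 300 bp (18.3%, 12.5 to 25.9) and 8 of 28 wider than 300 bp (28.6%, 15.3 to 47.1). After butyrate the shares were 4.90% (2.39 to 9.76), 6.60% (3.97 to 10.8) and 20.8% (12.0 to 33.5). Peaks found in one list were rarely next to a peak of the other. Of the 185 control peaks without an overlap 4 lay within 1 kb of a butyrate RNA pol II peak, and of the 376 butyrate peaks without an overlap 6 lay within 1 kb of a control peak. With overlaps included, 17.4% (12.9 to 22.9) of the acetylated control peaks lay within 1 kb of the other list, and 9.31% (6.86 to 12.5) of the butyrate peaks. The background over all RNA pol II peaks on chromosomes 1 to 29 was 18.6% and 10.3%, so this was not particular to the acetylated peaks. The median distance was 0.234 Mb for the control peaks, measured to the longer butyrate list, and 0.608 Mb for the butyrate peaks, measured to the shorter control list.

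The control peaks with an overlap made 34 pairs with butyrate peaks. Their centres were a median of 44.2 bp apart, and 25 pairs were within 100 bp. The butyrate peak was the wider in 18 pairs, the narrower in 15 and equal in 1, with a median log2 width ratio of 0.09 (quartiles -0.19 and 0.43). The overlap that made the pairs limits how far apart the centres could be. In 33 pairs the butyrate peak was in the acetylated class too. In the exception, on chromosome 21, the butyrate peak reached an H3K9me3 peak.

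The widest pair lay at chr19:27786425-27787023 in control, 599 bp, and at chr19:27786560-27786911 after butyrate, 352 bp, under H3K27ac of both conditions and no H3K9ac. The next by mean width was on chromosome 29, where control peaks of 223 bp (chr29:49858522-49858744) and 326 bp (chr29:49858808-49859133) met a single butyrate peak of 384 bp (chr29:49858732-49859115) in a region with all 4 acetylation lists. On chromosome 5 the widths were 351 bp in control (chr5:30864623-30864973) and 336 bp after butyrate (chr5:30864569-30864904). On chromosome 1 the peak went from 203 bp (chr1:81063916-81064118) to 467 bp (chr1:81063622-81064088), the largest rise in width of any pair, with a log2 ratio of 1.20. On chromosome 10 the widths were 312 bp (chr10:80970143-80970454) and 336 bp (chr10:80970239-80970574). A pair on chromosome 29 had the very same ends in both lists, chr29:44278990-44279265, 276 bp.

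The widest peaks found in control with no butyrate RNA pol II peak within 1 kb were chr19:11030185-11030685 (just over 500 bp), chr23:27331813-27332220 (408 bp) and chr2:127294648-127295037 (390 bp), followed by chr24:56292971-56293349 (379 bp) and chr3:56842614-56842984 (371 bp). The 3 widest of them were under H3K27ac of both conditions, and the one on chromosome 23 was under all 4 acetylation lists. The widest found after butyrate with no control RNA pol II peak within 1 kb were chr5:26128913-26129438 (526 bp), chr7:62284988-62285499 (512 bp), chr16:42633922-42634391 (470 bp), chr15:39829475-39829929 (455 bp) and chr3:16869496-16869938 (443 bp). The first 4 of these were under H3K27ac of butyrate and no other acetylation list. The one on chromosome 3 was under all 4 acetylation lists, with 10 butyrate H3K27ac peaks within 5 kb. The peak on chromosome 15 was 1045 bp from a control RNA pol II peak.

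The third question was which acetylation the RNA pol II peaks carried. H3K27ac was called in both conditions at 173 of the 219 control peaks (79.0%, 73.1 to 83.9) and at 320 of the 408 butyrate peaks (78.4%, 74.2 to 82.1). It was called in control only at 8.68% and 9.31% and in butyrate only at 9.13% and 10.8%. Peaks with H3K9ac and no H3K27ac were few, 7 in the control and 6 in the butyrate list. An H3K9ac peak of either condition lay under 40.6% (34.3 to 47.3) of control and 42.4% (37.7 to 47.2) of butyrate peaks, and H3K9ac of both conditions under 14.6% and 14.2%. The acetylation makeup of the lists therefore differed by less than the counting error.

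For RNA pol II peaks found in one condition and in both, the acetylation shares had overlapping intervals. The recurring sets were small, 34 control and 32 butyrate peaks, so likeness is not shown. Of the control peaks found in both lists 41.2% (26.4 to 57.8) had H3K9ac, and of those found in control only 40.5% (33.7 to 47.7). For the butyrate list these shares were 37.5% (22.9 to 54.7) and 42.8% (37.9 to 47.9). H3K27ac of both conditions lay under 82.4% (66.5 to 91.7) of the recurring control peaks and 78.4% (71.9 to 83.7) of the others, and under 84.4% (68.2 to 93.1) and 77.9% (73.5 to 81.8) of butyrate peaks.

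RNA pol II peaks called in one list only lay mostly at H3K27ac that was called in both conditions, as did those found in both lists. Whether a peak called in one list only was a gain or loss of RNA pol II was not tested. Of the 376 peaks of the butyrate list only, 293 were at H3K27ac of both conditions, and of the 185 of the control list only, 145. As a base, of the 46835 acetylated regions described below 25031 had H3K27ac of one condition, 722 had none and the others had it in both. The regions with it in both were wider, with class medians of 427 to 723 bp against 244 and 250 bp. The part of width and of the choice of peaks by acetylation was not tested. At RNA pol II peaks with H3K27ac of one condition the direction could be compared. Among control-only RNA pol II peaks whose H3K27ac was called in one condition, it was the control in 14 and butyrate in 19, so 42.4% (27.2 to 59.2) were of the same condition. Among butyrate-only RNA pol II peaks it was butyrate in 43 and control in 34, so 55.8% (44.7 to 66.4) were of the same condition. For H3K9ac the same condition was seen in 26 of 49 control-only peaks (53.1%, 39.4 to 66.3) and in 49 of 110 butyrate-only peaks (44.5%, 35.6 to 53.9).

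Those counts were set beside all acetylated regions. Acetylation peaks of the 4 lists were merged where they overlapped, which left 46835 regions on chromosomes 1 to 29 that were free of H3K9me3. Of the 25031 with H3K27ac of one condition, 58.6% had it in control and 41.4% in butyrate. That split is of whole regions, whereas the RNA pol II counts took only acetylation that touched the RNA pol II peak itself. The comparison is thus not like for like, and nothing is concluded from it. The 42.4% of control-only RNA pol II peaks had an interval that held 58.6%, and the 55.8% of butyrate-only RNA pol II peaks had one that lay above 41.4%. For H3K9ac, 48.6% of the regions of one condition were of control and 51.4% of butyrate, and the intervals of both RNA pol II lists held these values. Counted over regions, the control RNA pol II list had a peak in 0.123% (0.0777 to 0.194) of the regions with H3K27ac in control only and in 0.174% (0.110 to 0.274) of those with H3K27ac in butyrate only. These were 18 regions of each kind. The butyrate RNA pol II list had a peak in 0.239% (0.172 to 0.332) and 0.366% (0.267 to 0.503), from 35 and 38 regions. Within each list these intervals overlapped. The lane differed between the H3K27ac libraries, and its part in the result was not tested.

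The same regions show which acetylation went with RNA pol II. A control RNA pol II peak lay in 221 regions (0.472%) and a butyrate peak in 414 (0.884%), a ratio of 1.87, and these shares are the background for the classes that follow. Regions with H3K27ac and H3K9ac in both conditions had the highest shares, 3.34% (2.49 to 4.46) in control and 5.66% (4.53 to 7.06) after butyrate. Regions with H3K27ac in both conditions and H3K9ac in one had 1.16% (0.866 to 1.56) and 2.85% (2.37 to 3.43). Without H3K9ac the shares were 0.562% (0.458 to 0.691) and 0.969% (0.828 to 1.13). In each list the intervals of these 3 classes did not overlap. The ratios of butyrate to control were 1.70, 2.45 and 1.72, and the interval of each log2 ratio held that of all regions, 0.91.

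Region width went in the same order, with medians of 723, 572 and 427 bp. The centres of RNA pol II peaks were therefore also counted per Mb of region. The control list had 41.2 centres per Mb in regions with both acetylations in both conditions, 18.2 with H3K9ac in one condition and 10.5 without H3K9ac. The butyrate list had 71.9, 44.3 and 18.9. Over all 46835 regions the values were 10.9 and 21.3 per Mb. The order of these 3 classes was thus the same per length. Regions above 500 up to 800 bp with H3K27ac in both conditions gave 29.4 and 57.9 centres per Mb with H3K9ac against 9.77 and 19.2 without. Above 300 up to 500 bp the values were 22.1 and 45.8 against 11.6 and 21.0, and above 800 up to 1200 bp 25.4 and 49.7 against 9.32 and 21.4. Above 1200 up to 2000 bp they were 24.6 and 38.9 against 19.9 and 9.97. In the control list, shares of regions with and without H3K9ac had overlapping intervals except above 500 up to 800 bp. In the butyrate list, of the classes given here these intervals overlapped only above 1200 up to 2000 bp. Regions with H3K9ac alone, 722 in number, held a peak in 8 cases for the control and in 5 for the butyrate list, or 23.3 and 29.1 centres per Mb, from 4 and 5 centres.

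**Figure D2:**
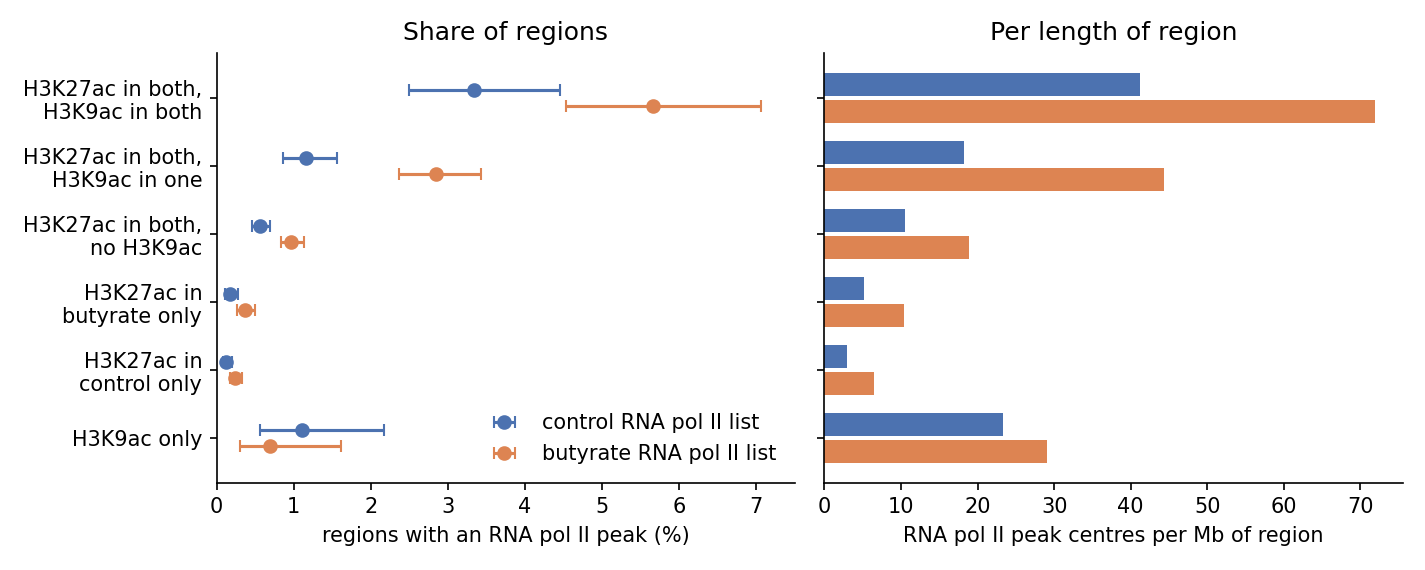
The left panel gives the percentage of acetylated regions on chromosomes 1 to 29 that hold an RNA pol II peak, by which acetylation lists had a peak in the region (points, with Wilson 95% intervals), and the right panel the RNA pol II peak centres per Mb of those regions (bars). Regions with both acetylations in both conditions stand highest in each list, with 3.34% and 5.66% of regions and 41.2 and 71.9 centres per Mb.

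RNA pol II peaks lay in wider acetylated regions. The 602 regions with an RNA pol II peak of either list were compared with the 46233 without. Median widths were 535 bp for the 33 regions with RNA pol II in both lists, 528 bp for 188 with control RNA pol II only, 549 bp for 381 with butyrate RNA pol II only and 308 bp for those without. The share of regions with a control RNA pol II peak was 0.163% (0.114 to 0.232) above 200 up to 300 bp, 0.425% (0.332 to 0.545) up to 500 bp, 0.919% (0.723 to 1.17) up to 800 bp, 1.56% (1.12 to 2.17) up to 1200 bp and 3.41% (2.19 to 5.26) up to 2000 bp. The butyrate list gave 0.261% (0.197 to 0.345), 0.830% (0.695 to 0.991), 1.84% (1.55 to 2.17), 3.21% (2.55 to 4.04) and 4.12% (2.76 to 6.11). Per Mb of region the control list went from 4.45 to 22.8 centres over these classes, and the butyrate list from 8.67 to 34.1 in the class up to 1200 bp and 27.9 in the class up to 2000 bp. These classes were set with the values known. At 200 bp the shares were 0.257% and 0.232%, from 10 and 9 regions, and there the butyrate list was not the higher.

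The conditions were furthest apart at the widest regions, a class chosen after its values were seen. Of 36 regions wider than 2000 bp, 11 held a butyrate RNA pol II peak (30.6%, 18.0 to 46.9) and 0 a control one, which allows a share of up to 8.33% by a floor of 3 counts and up to 9.64% by the Wilson interval. The size of the butyrate share depended on the limit. At 4 equally spaced limits, the lowest at 1500 bp and the next but one at 2000 bp, the butyrate list had a peak in 10.7%, 17.8%, 30.6% and 50% of 197, 73, 36 and 18 regions. The control list had one in 2.54% and 1.37% of regions at the lower limits and in 0 at the others. In the class just below, above 1200 up to 2000 bp, they had 19 and 23 of 558.

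The 11 regions were spread over 9 chromosomes. All 11 had H3K27ac in both conditions and H3K9ac in at least 1, 6 of them in both. Bases under H3K27ac were about the same in both conditions, with a median log2 ratio of butyrate to control of -0.04 (range -0.30 to 0.40), and were higher after butyrate in 4 of 11. The widest, chr23:7235713-7238610, had 2655 bp under H3K27ac in control and 2748 bp after butyrate. Its butyrate RNA pol II peak was at chr23:7236759-7236974, and the nearest control RNA pol II peak was 691 bp outside the region, the only one of the 11 with a control peak within 1 kb. On chromosome 22 there were 2 such regions, chr22:51970239-51972598 and chr22:51993465-51996082, with butyrate RNA pol II peaks of 292 and 200 bp. On chromosome 11, chr11:71347597-71349669 held 2 butyrate peaks. The others were on chromosomes 3, 4, 5, 7, 18 and 19. The 25 wide regions without RNA pol II had a median log2 ratio of H3K27ac bases of 0.04 (range -0.56 to 1.23), and 23 of them had H3K9ac.

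**Figure D3:**
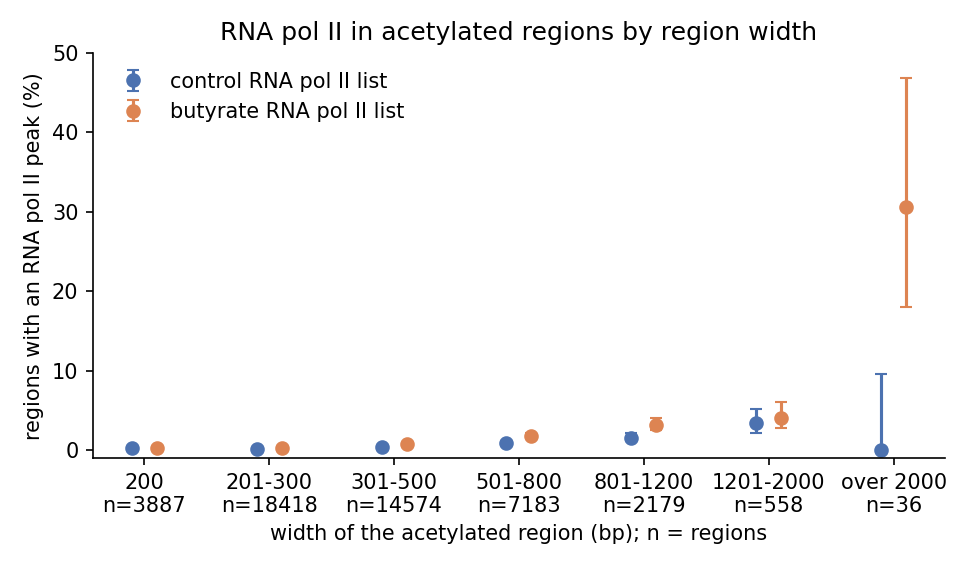
Percentage of acetylated regions on chromosomes 1 to 29 with an RNA pol II peak (points, with Wilson 95% intervals) by region width in bp, with the number of regions under each class. From the class above 200 up to 300 bp the share is higher in each wider class up to 2000 bp in both lists, and above 2000 bp it is 0 of 36 regions for the control and 11 of 36 for the butyrate list.

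How far H3K27ac extended was also compared where it was called in both conditions. The median log2 ratio of bases under H3K27ac, butyrate to control, was 0.00 at 27 regions with RNA pol II in both lists (quartiles -0.10 and 0.22), 0.01 at 150 with RNA pol II in control only (-0.22 and 0.28), 0.04 at 309 with RNA pol II in butyrate only (-0.15 and 0.35) and -0.01 at 20596 without (-0.32 and 0.25). More bases under H3K27ac after butyrate were seen in 54.0% (48.5 to 59.5) of the regions with RNA pol II in butyrate only, in 52.7% (44.7 to 60.5) of those with RNA pol II in control only and in 46.2% (45.5 to 46.8) of those without. The first and the last of these intervals did not overlap, whereas those of control only and butyrate only did. For H3K9ac the medians were -0.04 at 35 regions with RNA pol II in control only, 0.00 at 65 with RNA pol II in butyrate only and 0.00 at 1241 without. The extent of acetylation thus differed little with the condition in which RNA pol II was found.

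The place of the RNA pol II peak within its acetylated region is given as a description, since overlap with the region chose the peak. In control 145 of the 219 peaks (66.2%, 59.7 to 72.1) were under acetylation along their whole width, and after butyrate 292 of 408 (71.6%, 67.0 to 75.7). The centre of the RNA pol II peak was within an acetylated region in 90.4% (85.8 to 93.6) and 95.1% (92.6 to 96.8). It was in the inner 50% of the region in 61.6% (55.1 to 67.8) and 64.7% (60.0 to 69.2), a median of 104 bp from the region's centre in both lists. Only 3 control peaks and 8 butyrate peaks touched 2 regions.

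Around the peaks H3K27ac fell off with distance in the same way for both lists. At the centre of control RNA pol II peaks 79.5% had a control and 81.7% a butyrate H3K27ac peak, at 0.5 kb 26.5% and 26.9%, at 1 kb 20.1% and 17.6%, at 2 kb 7.74% and 9.12%, and at 5 kb 5.93% and 5.25%, as means of both sides. At butyrate RNA pol II peaks the values at the centre were 81.4% for control and 82.8% for butyrate H3K27ac, and 25.8% and 27.7% at 0.5 kb. H3K9ac was more confined, with 23.3% control and 20.5% butyrate H3K9ac at the centre of control RNA pol II peaks against 2.51% and 3.42% at 0.5 kb. At the centre of butyrate RNA pol II peaks H3K9ac was 25.5% for control and 20.8% for butyrate. The 2 conditions of H3K27ac gave near equal curves whichever RNA pol II list was the reference.

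**Figure D4:**
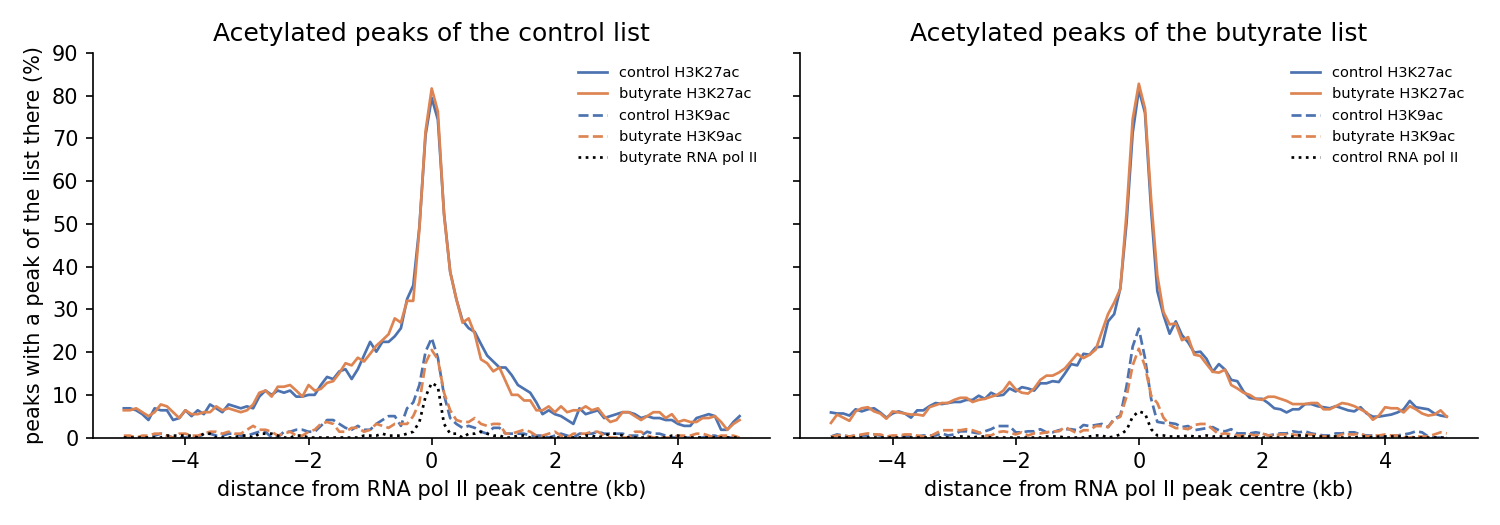
Percentage of the acetylated RNA pol II peaks of the control (left) and butyrate (right) list that have a peak of each other list at a given distance in kb from the RNA pol II peak centre. H3K27ac of both conditions covers 79.5% to 82.8% at the centre, a height that the choice of the peaks helps to set, and falls to 4.17% to 5.93% at 5 kb. H3K9ac and the RNA pol II list of the other condition are narrower and lower.

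The number of H3K27ac peaks nearby was set beside that of H3K27ac peaks in general. Within 5 kb of a control RNA pol II peak there were a mean of 2.99 control H3K27ac peaks, any that it overlapped included. Within 5 kb of a butyrate RNA pol II peak there were 3.15 butyrate H3K27ac peaks. At least 2 were present at 74.0% (67.8 to 79.3) and 74.8% (70.3 to 78.7). Of all H3K27ac peaks, 72.1% in control and 72.8% after butyrate had another within 5 kb. Each of these counts itself, whereas 20 control RNA pol II peaks overlapped H3K27ac of butyrate only and 7 overlapped none. In the butyrate list 38 overlapped H3K27ac of control only and 6 none. The shares are thus not like for like, and likeness is not shown. RNA pol II peaks with no histone mark, which by their definition overlap none, had a mean of 0.380 and 0.400 H3K27ac peaks within 5 kb.

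At the limit of the definition, the smallest shared stretches were 11 bp in control (chr29:45941617-45941864) and 4 and 7 bp after butyrate (chr18:50316869-50317167 and chr21:47295269-47295468). The nearest RNA pol II peaks that were left out for want of an overlap were 41 bp from acetylation in control (chr19:36462686-36462927) and 20 bp after butyrate (chr2:120072603-120072813). Few peaks were near the limit. Up to 50 bp were shared by 7 control and 4 butyrate peaks, and 7 and 9 unmarked peaks were within 100 bp of acetylation. Within 1 kb were 10.6% (7.68 to 14.4) of the 321 and 11.5% (9.27 to 14.1) of the 662 unmarked peaks.

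Most acetylated RNA pol II peaks stood alone. Groups with neighbours at most 10 kb apart held 18 control peaks, in 9 groups of 2, and 36 butyrate peaks, in 17 groups of up to 3. The groups of 3 were at chr10:80967119-80970574 and chr29:44276253-44279265. In 1 Mb windows, 400 of 2523 held a peak of either list, 145 held 2 or more and 11 held 5 or more. The window with the most was chr3:20000001-21000000, with 2 control and 7 butyrate peaks, next to 76 control and 74 butyrate H3K27ac peaks. It was followed by chr3:14000001-15000000 with 1 and 5 peaks and chr19:43000001-44000000 with 3 and 3, level with chr23:10000001-11000000.

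Chromosomes rich in H3K27ac had more acetylated RNA pol II peaks. Over the 29 chromosomes the peaks per Mb and the H3K27ac peaks per Mb had a Pearson r of 0.75 in control and 0.76 after butyrate (Spearman rho 0.64 and 0.85). These are descriptions over chromosomes that share libraries, and the acetylation lists helped to choose the peaks. Chromosome 23, which carries the bovine major histocompatibility genes, had the most per Mb over both lists, 0.629 from 14 control and 19 butyrate peaks, and chromosome 27 had none in either list. By number chromosomes 5, with 19 and 35, and 3, with 12 and 40, held the most, and chromosomes 10, 11 and 19 also held more than chromosome 23. Per 1000 acetylated regions chromosome 5 was highest with 21.0 peaks, next to 20.3 on chromosome 23. The median was 0.0713 per Mb in control and 0.155 after butyrate.

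The butyrate list had more peaks than the control list on 24 chromosomes, fewer on 1 and as many on 4, chromosome 27 with 0 in both included. Chromosome 19 was the one with fewer, from 21 to 17 (log2 ratio -0.30, -1.32 to 0.69). Chromosome 3 went from 12 to 40 (1.74, 0.78 to 2.80), and chromosome 22 from 0 to 9, among them the peaks of its 2 wide regions. Chromosome 19 was the only one of the 27 with a ratio whose interval did not hold the overall log2 ratio of 0.90, with chromosomes compared 1 by 1 and no correction for their number.

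**Figure D5:**
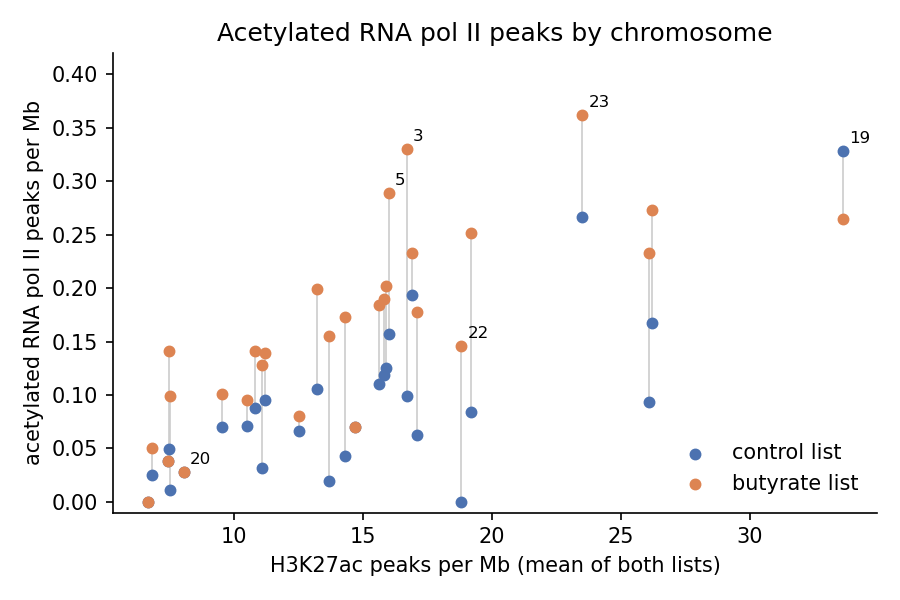
Acetylated RNA pol II peaks per Mb (vertical axis) against H3K27ac peaks per Mb, mean of both lists (horizontal axis), for chromosomes 1 to 29, with a grey line joining the control and butyrate point of a chromosome and some chromosomes numbered. Chromosome 23 stands highest in the butyrate list, and chromosome 19 is the one where the control point (21 peaks) is above the butyrate point (17 peaks).

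Regions with all 4 acetylation lists and RNA pol II in both lists numbered 9, or 0.698% (0.368 to 1.32) of the 1289 regions with all 4 acetylation lists. The widest RNA pol II peaks among them were at chr19:43923898-43925037, with 291 bp of RNA pol II in control and 316 bp after butyrate, and chr29:49858321-49859416. Next came chr12:20973538-20974277 with 207 and 306 bp, chr7:47400601-47402350 with 207 and 289 bp, and chr29:44278730-44279519 with 276 bp in control and peaks of 204 and 276 bp after butyrate. The other four were on chromosomes 3, 5, 10 and 18. These regions held every active mark measured here in every library that measured it.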

How the data were processed

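ChIP-seq peak lists of 8 libraries were used, 1 for each of 4 antibodies in control and butyrate. A list of the 1 input library was not used here. Per the labels and the methods, the authors removed reads failing the Illumina filter, aligned the rest with BWA to UMD3.1 (the methods give UMD3.1.1), kept unique alignments (reads are paired-end in the methods, single-end in the series text), and called peaks with MACS2 against the input, 1 list per library. The submitters' processing notes also name Trim Galore 0.4.1, which the methods give for other assays. The deposited lists hold chromosome, start and end, with no score or read number, so they give no depth. Read numbers that the study lists elsewhere were not used here. Starts and ends were both counted as part of a peak, from 1, and the narrowest peaks were then 200 bp wide.

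Overlap of at least 1 bp was computed in Python 3.11.15 (pandas 2.3.3) and was checked on simulated peaks, where 200 of 200 placed overlaps were recovered and 0 of 1042 others called, and against bedtools 2.31.1 (14 pairs of lists, 0 differing). Shares have Wilson 95% intervals and ratios of 2 numbers exact conditional ones (scipy 1.17.1). No test between conditions was run. Named regions are, by width, the 5 widest pairs and the 5 widest of each list alone, the windows and chromosomes with the most, those at the limit, and those with every active mark. Other named regions were chosen after their values were seen. The definition of the peaks, the named regions and the classes were chosen with earlier results of these data known. Distances to transcription starts and sequences were not analysed here.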

Additional observations from a re-analysis of the deposited data

How the results depend on the processing

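No paired analysis was possible because of the single library in each group, which also left no replicate to leave out. Of 118 values under other settings, 91 stayed within the counting interval of the reported value and 27 left it, a measure of the settings and not of animals. The log2 ratio of numbers ranged from 0.77 to 0.98 and that of bases from 0.73 to 0.96, with no change of sign in the 8 and 6 alternatives. The share of peaks wider than 200 bp could not be given for peaks wider than 200 bp, nor the agreement in direction with acetylation of the same condition only, since the setting fixes each. For values that moved, the cause was not tested, except where the setting itself takes peaks away or adds them. Added with the data in view were the use of the first 50% of a list, the leaving out of chromosome 3 or 19 and the limits of region width.

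With peaks that overlap H3K9me3 kept in, the share found in the other list became 27% in control and 16.2% after butyrate, the share with H3K9ac 47.7% and 47.3%, the share under H3K27ac of both conditions 71.9% and 72.9%, and the control share wider than 200 bp 76.2%. The share of control-only peaks whose H3K27ac was of the same condition went from 42.4% to 51.2%, within its interval. With acetylation of the same condition only, 32.2% and 29.3% had H3K9ac and 86.9% and 87.0% had H3K27ac of both conditions. With 50% of the RNA pol II peak under acetylation, 84.4% of control peaks had H3K27ac of both conditions. In the first 50% of the butyrate list 10.9% were found in control.

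For shares of regions with RNA pol II, keeping only RNA pol II peaks wider than 200 bp gave, for the control list, 0.845% with H3K27ac in both conditions and H3K9ac in one, 0.356% without H3K9ac and 0.106% with H3K27ac in butyrate only. For the butyrate list it gave 3.88% with both acetylations in both conditions, 1.98% with H3K9ac in one, 0.594% without H3K9ac, 0.150% with H3K27ac in control only and 0.251% with H3K27ac in butyrate only. Merging regions within 1 kb gave 1.68% and 3.60% for H3K9ac in one condition. With 50% of the RNA pol II peak inside the region, H3K9ac alone gave 0.416% for the control list against 0.693% for the butyrate list, the opposite order to the reported 1.11% and 0.693%. The share of the widest regions with butyrate RNA pol II, 30.6%, went to 10.7%, 17.8% and 50% at the other limits.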

Other observations

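The peaks of a list are not in order of position, and what their order stands for is not stated. Among the acetylated RNA pol II peaks, those in the first 25% of the control list were found after butyrate in 26.2% of cases (11 of 42, 15.3 to 41.1) and the rest in 13.0% (23 of 177, 8.82 to 18.7). In the butyrate list the shares were 12.3% (10 of 81, 6.85 to 21.3) and 6.73% (22 of 327, 4.48 to 9.98). The intervals overlapped in both lists. For RNA pol II peaks with H3K9me3 the butyrate shares were 50% (38.9 to 61.1) and 25.5% (17.9 to 35.0), with intervals that did not overlap, and the control shares 45.8% and 43.2%. Of the acetylated peaks, 50.2% (43.7 to 56.8) were in the first 50% of the control list and 45.1% (40.3 to 49.9) in that of the butyrate list. For peaks with H3K9me3 these shares were 60.9% (52.4 to 68.8) and 52.3% (44.9 to 59.7). For peaks with no histone mark they were 53.3% (47.8 to 58.7) and 56.3% (52.5 to 60.1). The lists were split with their peaks on other chromosomes included, so 50% is not the share expected of autosomal peaks.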
